A study of Homo sapiens with 2 samples.

Results

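Aminoacyl-tRNA synthetases are the enzymes that join each amino acid to its transfer RNA (tRNA), the step that supplies the ribosome with charged tRNA. Human cells have separate sets of nuclear genes for the cytosol and for the mitochondrion, where the enzymes serve translation of the few proteins encoded by mitochondrial DNA, and GARS and KARS provide the glycyl and lysyl enzymes of both compartments. Many of the cytosolic genes are known targets of the transcription factor ATF4, which is made when amino acids are short or the endoplasmic reticulum is under stress and which binds with C/EBP proteins at composite promoter elements. The members were the 36 genes on a list of synthetase symbols, as the deposited table writes them (AARS and not AARS1), with the symbols that end in 2 taken as the mitochondrial class (16 genes) and the rest, GARS and KARS included, as the cytosolic class (20 genes). All 36 had a value among the 19989 genes of the table.

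The hNCI-H716 cells are a human line from a cecal colorectal adenocarcinoma that serves as a model of the GLP-1-secreting L-cell. Both cultures had been attached to Matrigel and were then kept for 48 h in DMEM with fetal bovine serum and penicillin/streptomycin, with glucose at 5.5 mM (low) or at 25 mM (high). Each concentration has 1 library, made from polyadenylated RNA with a kit that does not keep the strand. Totals of 21757745 (low) and 19456367 (high) estimated counts were recovered from the steps between low values. With 1 library per concentration, no difference below has a replicate check and none was tested. Each compares the 2 libraries, every 95% interval covers counting error only, and glucose cannot be told apart from any other difference between the cultures. Levels are counts per 1000000 counts of the library (CPM), scaled by a TMM factor (trimmed mean of M-values). Of 8 enteroendocrine and epithelial markers, 7 were above 1 CPM in both libraries, led by GCG, the proglucagon gene, at 1954 CPM (low) and 1808 CPM (high), while EPCAM was at 3.37 and 3.50 CPM and NEUROD1 had no value here. Of 5 markers of other cells, 1 reached 1 CPM, which was ALB, the liver gene for albumin, at 456 and 487 CPM. In bulk RNA, fewer cells of a kind and less RNA per cell cannot be told apart.

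The promoters are shown first, with the element to which ATF4 is known to bind. RefSeq promoter windows of 300 bases, from 250 before to 50 after the annotated start (GRCh38.p14), were matched for 30 of the 36 members, and not for DARS, LARS, VARS, YARS, AARS2 and VARS2. They were searched on both strands for TGATGNAA, the core of the C/EBP-ATF response element, where N is any base. The element was found in 7 of the 16 cytosolic genes with a window (43.8%) and in 1 of the 14 mitochondrial genes (7.14%), against 4.46% of all 27305 genes with a window and 3.62% of all 35116 windows. The matches follow on the strand of each gene, with 10 bases on either side and the element in capitals, which reads TTGCATCA or TTTCATCA where it lies on the other strand.

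AARS: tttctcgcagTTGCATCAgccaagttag
CARS: ggggcggcggTTGCATCAgattctagga
GARS: tacgcggcgaTTTCATCAtgctccgagc
IARS: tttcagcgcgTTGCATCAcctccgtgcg
MARS: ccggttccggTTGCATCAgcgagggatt
NARS: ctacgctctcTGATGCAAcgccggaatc
TARS: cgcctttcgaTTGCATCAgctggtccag
YARS2: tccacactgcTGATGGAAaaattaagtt

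The printed stretches lie at chr16:70289676-70289703 (AARS, minus strand), chr11:3057408-3057435 (CARS, minus), chr7:30594835-30594862 (GARS, plus), chr9:92293693-92293720 (IARS, minus), chr12:57488054-57488081 (MARS, plus), chr18:57621805-57621832 (NARS, minus), chr5:33440957-33440984 (TARS, plus) and chr12:32756077-32756104 (YARS2, minus). The first base of the element lay between position -33 (GARS) and position 15 (NARS) from the annotated start in 6 of the 7 cytosolic genes, and at position -187 in AARS. In 6 of the 7 the letters were TGATGCAA on either strand, a form held by 0 of the 14 mitochondrial genes and by 1.08% of all genes with a window. This form was picked after the matches were seen. A match is a description of the letters and not a site of binding.

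The cytosolic synthetases were expressed at higher levels than the mitochondrial ones in both libraries. Per kb of the transcript with the longest coding sequence, which allows levels of different genes to be compared, the cytosolic median was 62.1 CPM per kb (low glucose) and 58.4 CPM per kb (high glucose), against 11.3 and 10.3 CPM per kb for the mitochondrial class. In low glucose, 14 of the 20 cytosolic genes stood above the highest mitochondrial gene and 13 of the 16 mitochondrial genes stood below the lowest cytosolic gene. Over the union of all exons of a gene these counts were 10 of 20 and 7 of 16, GARS stood first and SARS next at 114.9 and 93.9 CPM per kb, and IARS2 at 36.5 CPM per kb stood above IARS at 27.8 CPM per kb. With the coding transcript as length, the order was as follows. The highest levels in low glucose were those of SARS, the seryl enzyme, at 191 CPM per kb (95% Wilson interval 187 to 196), and GARS, the glycyl enzyme, at 181 CPM per kb (178 to 185), whose intervals did not overlap. KARS, the lysyl enzyme, followed at 155 CPM per kb and was first in high glucose at 168 CPM per kb. The lowest cytosolic gene was HARS, the histidyl enzyme, at 20.3 CPM per kb in low glucose, and CARS, the cysteinyl enzyme, at 17.4 CPM per kb in high glucose. Among the mitochondrial genes, IARS2, the isoleucyl enzyme, was the highest at 42.7 CPM per kb (41.2 to 44.1) in low glucose, and its interval overlapped that of IARS, its cytosolic counterpart, at 44.1 CPM per kb (42.8 to 45.4). In high glucose the intervals of IARS2, 40.6 to 43.6 CPM per kb, and IARS, 44.3 to 47.1 CPM per kb, did not overlap. The lowest were VARS2 at 3.85, FARS2 at 4.09 and PARS2 at 4.12 CPM per kb in low glucose, which charge valine, phenylalanine and proline and whose intervals overlapped. Of the 35 pairs of neighbours in this order, 19 had overlapping intervals in low glucose.

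**Figure D1:**
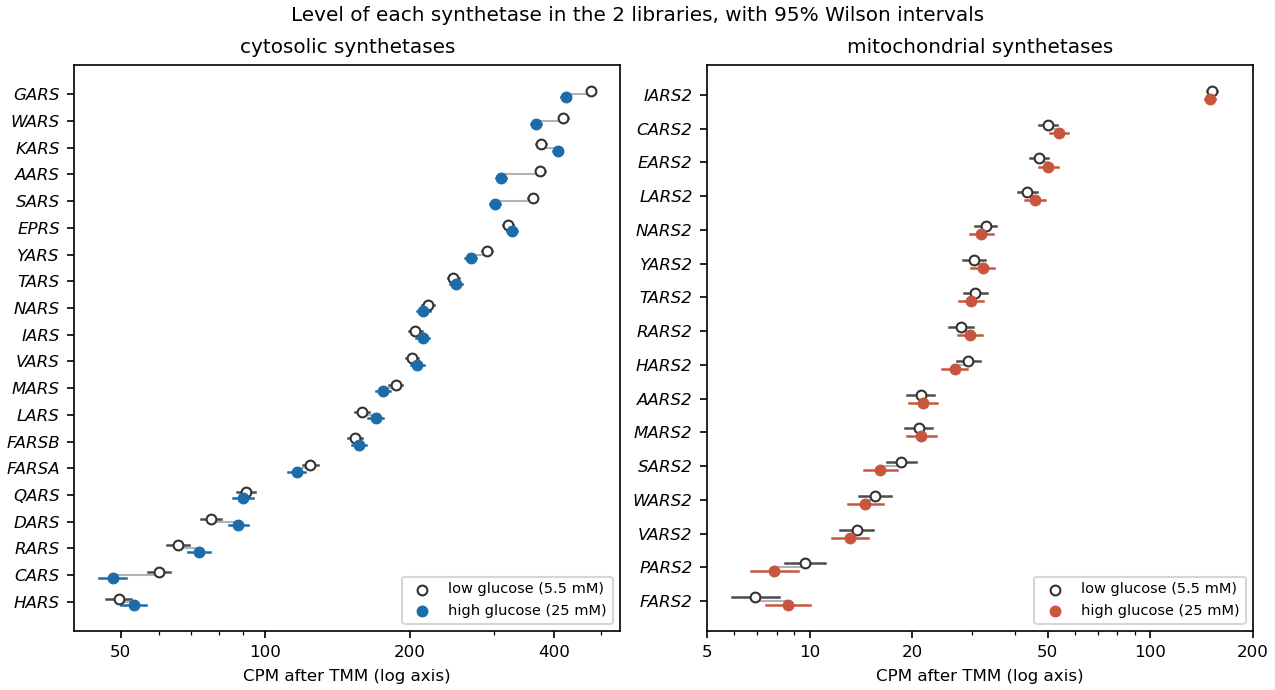
CPM after TMM of each synthetase in low (open points) and high (filled points) glucose on a log axis, cytosolic genes on the left and mitochondrial genes on the right, with bars for 95% Wilson intervals of the counts; each point is 1 library. SARS is at 360.3 and 301 CPM and KARS at 375 and 407 CPM in low and high glucose.

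Summed over the class, the cytosolic transcripts made 4453 CPM in low and 4253 CPM in high glucose, a log2 ratio of high over low of -0.07, and the mitochondrial transcripts made 549.9 and 553 CPM, a log2 ratio of 0.01. The class medians lay close together. The median log2 ratio was 0.00088 over the 20 cytosolic genes and 0.0014 over the 16 mitochondrial genes, with 10 and 8 genes lower in high glucose and 10 and 8 higher, beside a median of -0.0064 over the 13052 genes that averaged 1 CPM or more. A difference was called where the higher library was above the lower by at least 25%, a log2 ratio of 0.32 in size. No member was past it in either direction, where 8.18% of these 13052 genes were lower in high glucose and 4.41% were higher by as much. All 20 cytosolic genes averaged 50 CPM or more, and of the 4414 genes at that level only 56 were lower and 19 higher by as much. CARS came closest among the lower genes, at a fold of 1.248, and FARS2 among the higher genes, also at 1.248. With library totals or median-of-ratios size factors in place of TMM, FARS2 was past the 25% difference, at a log2 ratio of 0.324 under each, so the count of 0 higher genes depends on the scaling.

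Single cytosolic genes nevertheless differed by more than counting error. The counting interval lay wholly below 0 for 8 of the 20 cytosolic genes and wholly above 0 for 4, whereas it spanned 0 for all 16 mitochondrial genes. Over the 13052 genes it lay below 0 for 16.0% and above 0 for 15.8%. Over the 4414 genes that averaged 50 CPM or more, a level that all 20 cytosolic but only 2 of the 16 mitochondrial genes reached, it lay below 0 for 21.9% and above 0 for 29.6%. The intervals of the mitochondrial genes were wider, with a median width of 0.34 on the log2 scale against 0.12, and the median gene rested on 1166 estimated counts over both libraries against 8513. Differences as small as most of those in the cytosolic class were not detectable for most mitochondrial genes at this depth.

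**Figure D2:**
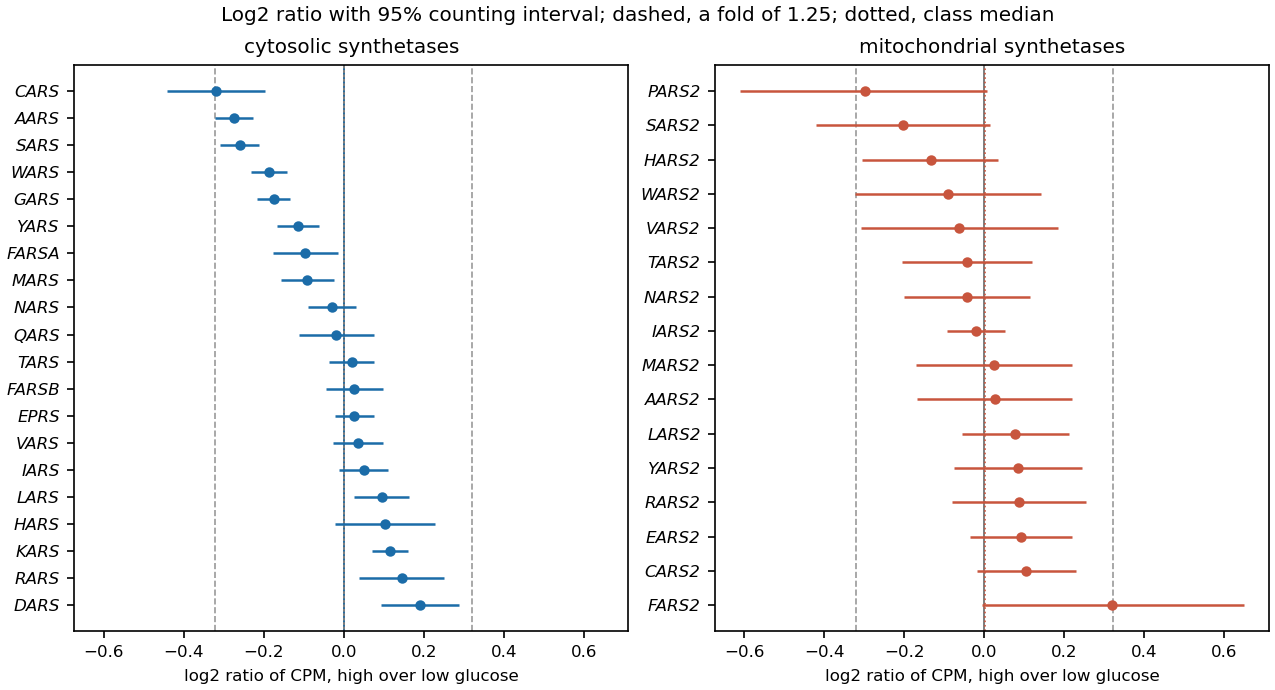
Log2 ratio of CPM, high over low glucose, of the cytosolic (left) and mitochondrial (right) synthetases, with bars for exact binomial 95% counting intervals, dashed lines where one library is 25% above the other and a dotted line at the class median. The bars of 8 cytosolic genes lie below 0 and those of 4 lie above it, and every mitochondrial bar crosses 0.

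The lower cytosolic genes in high glucose were led by the cysteinyl, alanyl and seryl enzymes. With a difference of at least 15%, picked after the values were seen, 3 of the 20 cytosolic genes were lower and 0 were higher, beside 16.4% lower and 10.9% higher among all genes averaging 1 CPM or more, and 5.89% lower and 5.28% higher among those averaging 50 CPM or more. CARS (chr11:3000922-3057613) was at 60.0 CPM (56.9 to 63.4) in low and 48.1 CPM (45.1 to 51.3) in high glucose, a log2 ratio of -0.32 (-0.44 to -0.20). AARS (chr16:70252295-70289543) was at 374 CPM (366 to 382) in low and 309 CPM (302 to 317) in high glucose, a log2 ratio of -0.27 (-0.32 to -0.23). SARS (chr1:109213918-109238169) was at 360.3 CPM (352 to 368) in low and 301 CPM (293 to 309) in high glucose, a log2 ratio of -0.26 (-0.31 to -0.21). The Wilson intervals of the libraries did not overlap for any of the 3. The ratios of CARS, AARS and SARS stood at percentiles 8.33, 10.7 and 11.6 of all genes averaging 1 CPM or more, and at 2.70, 4.32 and 5.00 of those averaging 10 CPM or more.

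The promoter window of CARS (chr11:3057374-3057673, minus strand) is printed as that of the lowest cytosolic ratio, with the response element in capitals at its annotated start.

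CARS: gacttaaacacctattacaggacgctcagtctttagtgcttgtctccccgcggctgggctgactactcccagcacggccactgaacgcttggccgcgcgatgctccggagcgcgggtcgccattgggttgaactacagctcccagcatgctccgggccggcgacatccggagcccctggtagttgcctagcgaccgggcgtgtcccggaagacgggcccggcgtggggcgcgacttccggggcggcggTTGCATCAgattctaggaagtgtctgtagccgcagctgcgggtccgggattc

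The window of SARS (chr1:109213643-109213942, plus strand) is printed beside it because SARS was lower too and neither of its 2 windows holds the letters of the element.

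SARS: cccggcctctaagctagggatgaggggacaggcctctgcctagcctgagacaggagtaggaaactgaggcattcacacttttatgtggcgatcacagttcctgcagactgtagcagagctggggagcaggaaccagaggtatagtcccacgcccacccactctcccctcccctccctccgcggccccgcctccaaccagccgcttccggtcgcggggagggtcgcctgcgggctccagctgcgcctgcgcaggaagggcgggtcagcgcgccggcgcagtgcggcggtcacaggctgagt

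WARS, the tryptophanyl enzyme, was at 417 CPM (409 to 426) in low and 367 CPM (358 to 375) in high glucose, a log2 ratio of -0.19 (-0.23 to -0.14). GARS, which serves both compartments, was at 477 CPM (468 to 486) in low and 423 CPM (414 to 432) in high glucose, a log2 ratio of -0.18 (-0.22 to -0.13). In both genes the Wilson intervals of the libraries did not overlap. YARS, FARSA and MARS, the tyrosyl enzyme, the alpha subunit of the cytosolic phenylalanyl enzyme and the methionyl enzyme, had the other 3 intervals below 0, at log2 ratios of -0.11, -0.10 and -0.09. Together the CPM of CARS, AARS, SARS, WARS and GARS was 241 lower in high glucose, more than the 199.99 by which the whole cytosolic class was lower.

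The cytosolic genes higher in high glucose with an interval above 0 were DARS, RARS, KARS and LARS, which charge aspartate, arginine, lysine and leucine. DARS was at 77.1 CPM (73.5 to 80.8) in low and 87.9 CPM (83.8 to 92.2) in high glucose, a log2 ratio of 0.19 (0.09 to 0.29). RARS was at 65.7 CPM (62.4 to 69.2) in low and 72.7 CPM (69.0 to 76.6) in high glucose, a log2 ratio of 0.14 (0.04 to 0.25). KARS was at 375 CPM (367 to 383) in low and 407 CPM (398 to 416) in high glucose, a log2 ratio of 0.12 (0.07 to 0.16). The Wilson intervals of the libraries overlapped for RARS and LARS and not for DARS or KARS, and the dual-compartment enzymes GARS and KARS differed in opposite directions. LARS had the smallest difference of these, at a log2 ratio of 0.09 (0.03 to 0.16).

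The remaining 8 cytosolic genes, NARS, QARS, TARS, FARSB, EPRS, VARS, IARS and HARS, had intervals that spanned 0 and log2 ratios from -0.03 to 0.10. FARSA and FARSB encode the subunits of a single enzyme. FARSA was at 124 CPM (119.5 to 129) in low and 116 CPM (111 to 121) in high glucose, and FARSB was at 154 CPM (149 to 159) in low and 157 CPM (151 to 162) in high glucose. The intervals of their log2 ratios, -0.18 to -0.01 and -0.04 to 0.10, overlapped.

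The ratios of genes with and without the response element overlapped. Of the 7 cytosolic genes whose window holds it, AARS, CARS, GARS and MARS had an interval below 0, while those of IARS, NARS and TARS spanned 0. Of the 9 with a window that does not hold it, SARS, WARS and FARSA were below 0, KARS and RARS above 0 and 4 spanned 0. The median log2 ratio was -0.09 with the element and 0.03 without it. From the lowest to the highest gene, the ratios ran from -0.32 to 0.05 with it and from -0.26 to 0.14 without it.

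**Figure D3:**
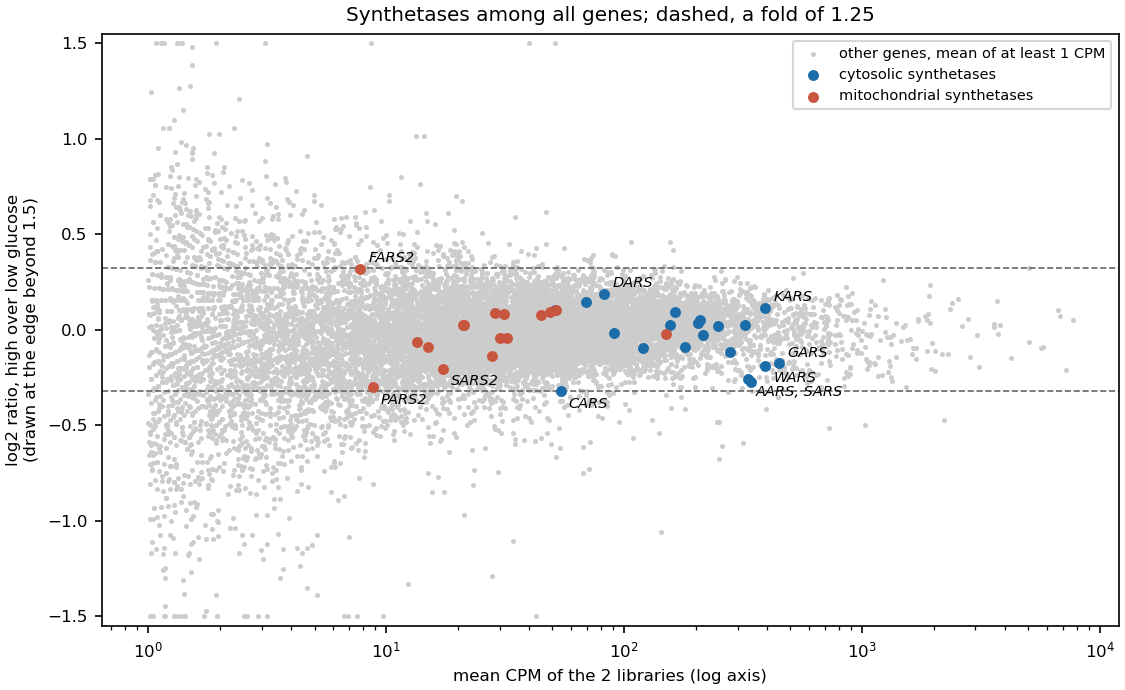
Log2 ratio of CPM, high over low glucose, against the mean CPM of the libraries (log axis) for each gene averaging 1 CPM or more (grey) and for the cytosolic (blue) and mitochondrial (red) synthetases, with dashed lines where one library is 25% above the other; genes beyond 1.5 on the log2 scale are drawn at the edge. AARS and SARS lie at log2 ratios of -0.27 and -0.26, and PARS2 and FARS2 at -0.30 and 0.32 among the wider spread of genes near 10 CPM.

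The mitochondrial genes with the largest ratios included those with the fewest counts. FARS2, which charges phenylalanine, was at 6.92 CPM (5.88 to 8.10) in low and 8.63 CPM (7.41 to 10.0) in high glucose, from 150 and 168 estimated counts, a log2 ratio of 0.32 (-0.01 to 0.65). PARS2, which charges proline, was at 9.68 CPM (8.44 to 11.1) in low and 7.86 CPM (6.70 to 9.20) in high glucose, a log2 ratio of -0.30 (-0.61 to 0.01). SARS2, which charges serine, was at 18.5 and 16.1 CPM, a log2 ratio of -0.20 (-0.42 to 0.01). With a difference of at least 15%, PARS2 and SARS2 were lower and FARS2 was higher, 2 and 1 of the 16 genes, a share no higher than the 16.4% and 10.9% of all genes averaging 1 CPM or more, and the Wilson intervals of the libraries overlapped for all 3. SARS2 was just past the 15% difference (a log2 ratio of 0.202 in size), and fell short of it with library totals, size factors or a pseudocount of 1 CPM, at -0.198, -0.198 and -0.192, which leaves PARS2 as the lower gene. The other 13 lay between log2 ratios of -0.13 for HARS2 and 0.10 for CARS2. IARS2 had the most counts of the class and a log2 ratio of -0.02 (-0.09 to 0.05).

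Enzymes of the cytosol and the mitochondrion that use the same amino acid were set side by side. Of 16 such pairs, in which EPRS, a fused glutamyl and prolyl enzyme, stands against both EARS2 and PARS2, the log2 ratio was lower for the cytosolic gene in 8 and higher in 8, and the signs were opposite in 10. The counting intervals of the log2 ratios did not overlap in 3 pairs, with the cytosolic gene lower in each. These were alanine, at -0.27 for AARS and 0.03 (-0.17 to 0.22) for AARS2, cysteine, at -0.32 for CARS and 0.10 (-0.02 to 0.23) for CARS2, and phenylalanine, at -0.10 for FARSA and 0.32 for FARS2. The phenylalanine pair rests on the subunit: the interval of FARSB, -0.04 to 0.10, overlapped that of FARS2, -0.01 to 0.65, and with FARSB in place of FARSA, chosen after the values were seen, 2 pairs were separate and 9 had opposite signs. For serine both genes were lower, at -0.26 for SARS and -0.20 for SARS2, with overlapping intervals. AARS2 was at 21.1 and 21.5 CPM and CARS2 at 50.1 and 53.9 CPM in low and high glucose. Separate intervals describe counting error and do not test the pair.

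**Figure D4:**
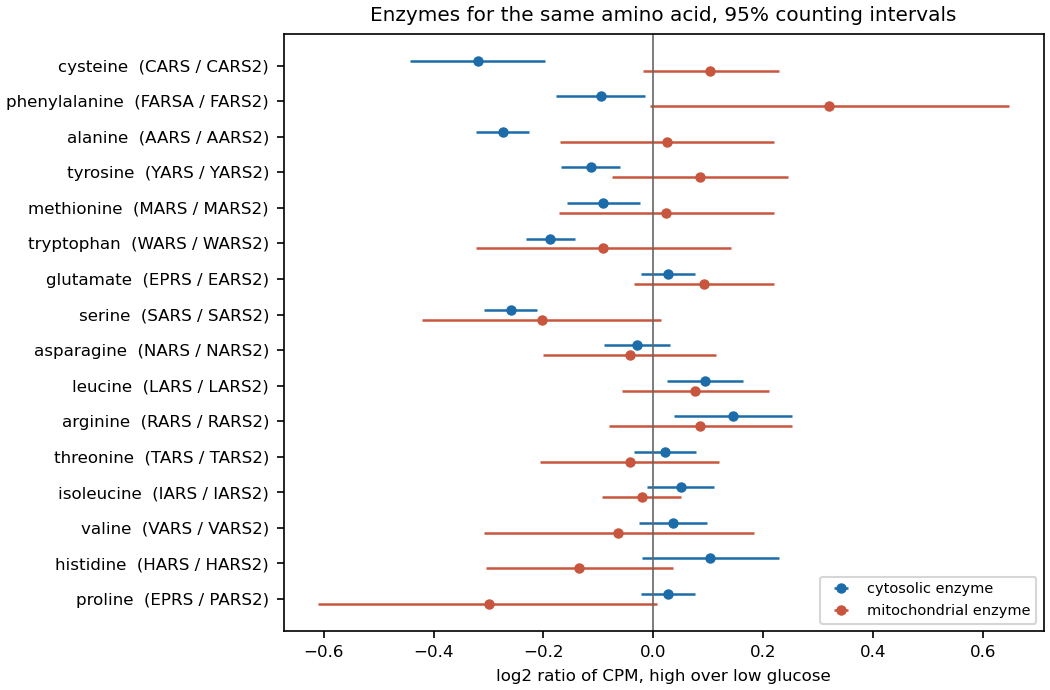
Log2 ratio of CPM, high over low glucose, of the cytosolic (blue) and mitochondrial (red) gene for each amino acid, with exact binomial 95% counting intervals. The bars are separate for cysteine, alanine and phenylalanine and overlap for the other 13 pairs; phenylalanine is drawn with FARSA, and the interval of FARSB, the other subunit, overlaps that of FARS2.

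HARS and HARS2 lie head to head on chromosome 5. Their RefSeq starts, at 140691370 on the minus strand for HARS and 140691455 on the plus strand for HARS2, are 85 bases apart, and the promoter window of HARS2 (chr5:140691205-140691504) is printed with the stretch between the starts, both included, in capitals.

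HARS2: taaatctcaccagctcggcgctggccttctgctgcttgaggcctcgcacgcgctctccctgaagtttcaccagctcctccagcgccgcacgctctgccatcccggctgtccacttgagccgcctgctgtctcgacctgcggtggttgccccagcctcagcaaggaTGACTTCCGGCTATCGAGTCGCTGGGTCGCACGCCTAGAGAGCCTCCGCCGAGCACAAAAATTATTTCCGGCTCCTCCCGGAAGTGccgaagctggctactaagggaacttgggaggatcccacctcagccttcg

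HARS was at 49.5 CPM (46.6 to 52.5) in low and 53.2 CPM (50.03 to 56.5) in high glucose, a log2 ratio of 0.10 (-0.02 to 0.23). HARS2 was at 29.2 CPM (27.0 to 31.5) in low and 26.6 CPM (24.4 to 28.97) in high glucose, a log2 ratio of -0.13 (-0.30 to 0.04). The Wilson intervals of the libraries overlapped in each gene, and so did the intervals of their log2 ratios. In GENCODE v29 the spans of the genes from first to last base, introns included, overlap by 437 bases. Whether their exons overlap was not examined, and reads from any shared exon cannot be told apart without strand. The overlaps that follow are of such spans too. In all, 10 members overlapped a gene on the opposite strand averaging 1 CPM or more, and HARS2 and VARS2 overlapped ZMAT2 and GTF2H4 on their own strand. MARS overlaps 982 bases of DDIT3, which encodes the stress factor CHOP and was at 63.2 CPM in low and 21.9 CPM in high glucose, a log2 ratio of -1.53. MARS itself was at 187 CPM (181 to 193) in low and 175 CPM (169.7 to 181) in high glucose, and the part of DDIT3 reads in this difference was not tested. Among the other members with an interval below 0, WARS overlapped WDR25, at a log2 ratio of 0.19, and YARS overlapped S100PBP, at 0.05. Of those with an interval above 0, KARS overlapped TERF2IP by 858 bases. TERF2IP was at 160 CPM in low and 169 CPM in high glucose, a log2 ratio of 0.08.

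Within the cytosolic class, the genes of the multisynthetase complex and those outside it were compared after the values were seen. The complex holds the enzymes of EPRS, IARS, LARS, MARS, QARS, RARS, KARS and DARS on the scaffold proteins AIMP1, AIMP2 and EEF1E1. Its 8 enzymes had a median log2 ratio of 0.07, of which 6 were higher and 2 lower in high glucose, 4 with an interval above 0 and only MARS with one below. The 12 enzymes outside it had a median of -0.10, of which 4 were higher and 8 lower, 7 with an interval below 0 and 0 above. Among all genes averaging 50 CPM or more, the interval lay below 0 for 21.9% and above 0 for 29.6%. The medians differed by 0.18, and the division was made knowing the values. The summed CPM of the complex was 1481 in low and 1541 in high glucose, and that of the enzymes outside it was 2972 and 2711. The scaffolds were at 91.0 and 87.6 CPM for AIMP1, 69.3 and 71.7 CPM for AIMP2 and 31.7 and 30.8 CPM for EEF1E1, and all 3 intervals spanned 0.

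Other genes of amino acid supply to translation were read in the same way, from lists set with results of these data known. Of 9 other charging enzymes and their partners, 0 were called, beside 8.18% of all genes called lower and 4.41% called higher, and their median log2 ratio was -0.03, from -0.16 for SEPSECS, the selenocysteine synthase, to 0.14 for TARSL2. XPOT, which carries tRNA out of the nucleus, was at 239 CPM in low and 235 CPM in high glucose, a log2 ratio of -0.02 (-0.08 to 0.03).

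Genes of the amino acid response, which are further targets of ATF4, were read beside the synthetases. This list too was set with results of these data known. It holds genes for serine and asparagine synthesis and amino acid transport, and also stress genes such as DDIT3. Of 22 listed, 21 averaged 1 CPM or more, and all 21 had a log2 ratio and an interval below 0. The interval lay below 0 for 16.0% of all genes averaging 1 CPM or more and for 21.9% of those averaging 50 CPM or more. Of the 21 listed genes, 15 were lower by at least 25%, beside 8.18% of all genes. Their median log2 ratio was -0.47, from -1.64 for CHAC1, which degrades glutathione, to -0.07 for SLC38A2, an amino acid transporter. ASNS, the asparagine synthetase, was at 96.9 and 73.4 CPM, a log2 ratio of -0.40 (-0.50 to -0.30). The response element was in the window of 6 of the 16 of these genes that had one (37.5%), against 7 of 16 for the cytosolic synthetases. The log2 ratios of CARS, AARS and SARS, from -0.32 to -0.26, were within the range of this list and smaller in size than its median.

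**Figure D5:**
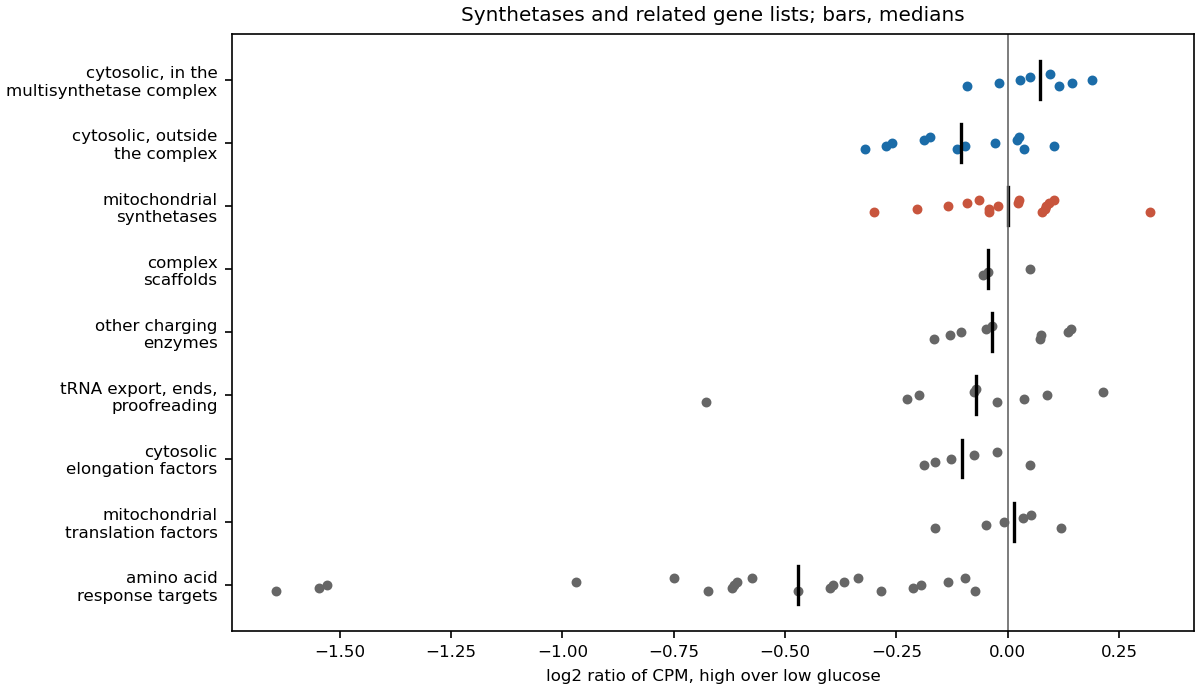
Log2 ratio of CPM, high over low glucose, of the synthetases by group and of the genes of related lists; each point is a gene and each bar a median. The synthetases outside the multisynthetase complex have a median of -0.10 and those in it 0.07, while all 21 amino acid response targets lie below 0, with a median of -0.47.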

How the data were processed

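The data were RNA-seq libraries of hNCI-H716 cells, 1 per glucose concentration. The authors aligned reads to GRCh38 with STAR 2.6.0 and estimated counts per gene with RSEM 1.3.1 (versions from the submitters' processing notes), and deposited CPM and log2 CPM of 19989 genes. Deposited means, and the authors' own log2 difference and fold ratio of the libraries, were not used. The lowest deposited CPM, 0.0121, is a prior of 0.25 counts. Library totals were recovered from the steps between low CPM. Under 10 CPM, 72.1% (low) and 72.7% (high) of values were within 0.03 of a whole count, so no count model was run. CPM were divided by TMM factors of 0.998 (low) and 1.002 (high), with trims of 30% and 5%. Levels carry 95% Wilson intervals and log2 ratios exact binomial intervals. The software was Python 3.11.15, numpy 2.4.6, scipy 1.17.1 and pandas 2.3.3, and the calculations were tested on simulated data. Lengths, coordinates and overlaps came from GENCODE v29, where the study names v28 of the same assembly. Promoters came from RefSeq, with older symbols matched through its synonyms. The other motifs searched were CACGTG, the E-box, in 1 of 16 cytosolic and 3 of 14 mitochondrial windows against 8.77% of all genes, and the NRF1 core (GCGCA and GCGC separated by 1 base), in 3 and 3 against 6.98%. Protein identity was not computed, and some values of related genes are not reported here.

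The members, lists and thresholds were chosen with earlier results of these data known. By rule, values were given for members past the 25% difference, GARS, KARS, HARS, HARS2, FARSA, FARSB, the highest and lowest genes per kb of each class, the scaffolds, XPOT and the extremes of each list. All others named with values, such as AARS, WARS, DARS, RARS, FARS2, SARS2, DDIT3 and ASNS, were added after their values were seen.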

Additional observations from a re-analysis of the deposited data

How the results depend on the processing

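With another scaling (library totals or median-of-ratios size factors), a pseudocount of 1 CPM or the prior taken off, all 144 recomputed log2 ratios of the 36 synthetases moved by less than their counting error. The class medians moved by less than the median counting error of a member, from 0.00088 up to 0.0053 (cytosolic) and from 0.0014 up to 0.0058 (mitochondrial) with library totals, and their difference went from -0.00048 to 4.7e-05, a change of sign, with the pseudocount. The count of genes called lower in high glucose was 0 in each class under every scaling, the pseudocount and the prior taken off. A fold of 1.5, the other filters and the other classes for GARS and KARS could not add a call to it. The count was 8 cytosolic and 0 mitochondrial genes when a counting interval below 0 took the place of the fold, and 3 cytosolic and 2 mitochondrial genes at a difference of 15%, chosen after seeing the data. The fold of 15% asks for a smaller difference, and the cause of the count under the interval rule was not tested. With library totals or size factors alone FARS2 passed the 25% difference, at a log2 ratio of 0.32. Over the union of all exons, the median level in low glucose was 39.2 CPM per kb for the cytosolic and 6.65 CPM per kb for the mitochondrial class, and 32 of the 36 levels per kb moved beyond their Wilson intervals. The count of mitochondrial genes below the lowest cytosolic gene went from 13 to 7. With FARSB in place of FARSA, added after seeing the data, separate pairs went from 3 to 2. No paired analysis was possible because there was 1 library at each concentration, and for the same reason no library could be left out.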

Other observations

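The factors that carry charged tRNA to the ribosome were read beside the enzymes. Of the 6 cytosolic elongation factors, 0 were called and 5 had a log2 ratio below 0, with 4 counting intervals below 0 and a median of -0.10. Of all genes averaging 1 CPM or more, 8.18% were called lower and 4.41% higher. Of the 4414 averaging 50 CPM or more, as all 6 factors did, 56 were called lower and 19 higher, and the interval lay below 0 for 21.9%. These factors are abundant and their intervals narrow. EEF1B2, a subunit of the exchange factor of elongation factor 1, was at 273 CPM in low and 240.0 CPM in high glucose, a log2 ratio of -0.19 (-0.24 to -0.13), while EEF1A1, which delivers charged tRNA, was at 7542 and 7812 CPM, a log2 ratio of 0.05 (0.04 to 0.06). The 6 mitochondrial translation factors had a median of 0.01, from -0.16 for MTIF3 to 0.12 for GFM1. Of 9 genes of tRNA export, end processing and proofreading, the highest was DTD2, a proofreading enzyme, at 33.8 and 39.2 CPM, a log2 ratio of 0.21 (0.06 to 0.36).

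Between the catalytic folds of the cytosolic enzymes, called class I and class II, the median log2 ratio was -0.02 over 9 genes and -0.0043 over 10 genes, with EPRS, which has both folds, left out. This division was chosen after the values were seen and no difference was tested.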
